A study of Mus musculus with 3 samples.

Results

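The cells described here were 97 monocytes and macrophages of the injured tendon whose RNA was rich in 4 interferon-induced transcripts, *Ifit1*, *Ifit2*, *Ifit3*, and *Rsad2*. They were chosen by the summed level of these 4 genes in each cell of the tendon library, counted in unique molecular identifiers (UMIs), the tags that mark single captured RNA molecules. A member had at least 200 detected genes, at most 20% mitochondrial UMIs, at least 1 UMI of *Csf1r* (the receptor for the macrophage growth factor CSF1), *S100a8* plus *S100a9* below 2% of its UMIs, no UMI of *Pdgfra* or *Cdh5*, and at least 10 UMIs of the 4 genes per 10000 UMIs of the cell. Of 4978 tendon cells past the quality filter, 2770 held a *Csf1r* UMI, 2649 of these were below the *S100a8* and *S100a9* limit, and 2446 also lacked *Pdgfra* and *Cdh5*. These 2446 are called eligible cells, and 97 of them (3.97%, 95% Clopper-Pearson interval 3.23 to 4.82) reached the 4-gene rate. The members were 1.95% of the filtered tendon cells and belong to a series of 9725 cells, and the other 2349 eligible cells served as the comparison group.

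Single-cell RNA was measured 3 days after burn/tenotomy, a dorsal burn combined with complete transection of the Achilles tendon, in mice aged 10 weeks that the study's methods describe as male C57BL/6J. Bone marrow was flushed, blood was reduced to mononuclear cells on a Ficoll gradient, both were cleared of red cells by lysis, and tissue cut from the tendon injury was digested enzymatically, each giving 1 library of unsorted cells. All 3 libraries carry the burn and the tenotomy, and an uninjured library was not analysed here. How many mice were pooled for a library was not found in the sources consulted, so the values below carry counting intervals only and no test between conditions was possible. The tendon library held 5629 barcodes and 90621052 UMIs, with a median of 11082 UMIs per barcode. Members held a median of 15628 UMIs (range 4886 to 31339) and the other eligible cells a median of 12292. No member shared its barcode with the bone marrow or blood library, although the tendon library as a whole shared 1 barcode with bone marrow and 6 with blood.

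Interferons are cytokines that cells release when they sense foreign or misplaced nucleic acid. Type I interferons bind the receptor pair encoded by *Ifnar1* and *Ifnar2*, and JAK kinases then activate a complex that contains STAT2 and IRF9 and binds interferon-stimulated response elements in the promoters of antiviral genes. Interferon gamma, made mainly by T and NK cells, uses the receptor pair encoded by *Ifngr1* and *Ifngr2*. After injury, monocytes enter from the blood and mature into macrophages, and cells at any stage of that path can answer interferon.

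The letters TTTCNNTTTC, read on either strand (GAAANNGAAA on the opposite one), form the core of an interferon-stimulated response element. They were searched from 250 bases before to 50 bases after the gene starts in RefSeq promoter sequences of build GRCm38.p6. The motif was present in 3.44% of 32851 promoters. It was present in 3 of the 4 genes of the rule, with no match in the *Ifit2* window, and in 13 of the 29 promoters found for the interferon-induced effector list described below. The stretches below, printed along the direction of transcription with the motif letters in capitals, show 3 genes of the rule and 3 genes that the rule did not use. *Ifit1*, *Ifit3*, and *Rsad2* encode antiviral proteins, *Isg15* a ubiquitin-like modifier, *Cxcl10* a chemokine that draws T cells, and *Gbp2* a guanylate-binding GTPase.
Ifit1 (chr19:34640760-34640838, plus strand): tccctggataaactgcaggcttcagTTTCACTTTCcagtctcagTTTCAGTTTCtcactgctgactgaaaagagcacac
Ifit3 (chr19:34583348-34583441, plus strand): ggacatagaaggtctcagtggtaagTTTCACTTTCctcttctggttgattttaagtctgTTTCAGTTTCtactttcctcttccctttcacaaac
Rsad2 (chr12:26456538-26456597, minus strand): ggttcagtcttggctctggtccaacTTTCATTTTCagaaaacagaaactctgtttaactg
Isg15 (chr4:156200850-156200921, minus strand): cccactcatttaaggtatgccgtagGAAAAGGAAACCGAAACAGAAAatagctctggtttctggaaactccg
Cxcl10 (chr5:92349068-92349127, minus strand): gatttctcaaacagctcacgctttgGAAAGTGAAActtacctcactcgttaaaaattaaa
Gbp2 (chr3:142620579-142620638, plus strand): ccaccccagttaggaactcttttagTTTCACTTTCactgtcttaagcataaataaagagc

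*Ifit1* and *Ifit3* each held 2 separate matches, the nearest beginning 85 and 122 bases before the gene start. The 3 matches of *Isg15* overlap one another and begin 78, 72, and 66 bases before its start, while those of *Rsad2*, *Cxcl10*, and *Gbp2* begin at 120, 213, and 59 bases. The windows of *Irf7*, *Cmpk2*, *Tnfsf10*, *Oasl1*, and *Ifi44*, which are described below, held no match to these letters, nor did those of *Apoe*, *Gpnmb*, and *Il1b*. A match is a description of the sequence and was not measured as a bound site.

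The 4 genes of the rule were detected together. All 4 were present in 89 members, 3 of the 4 in 6 members, and 2 of the 4 in 2 members. *Ifit2*, *Ifit3*, and *Ifit1* (ENSMUSG00000045932, ENSMUSG00000074896, and ENSMUSG00000034459) are neighbours on chromosome 19, and *Rsad2* (ENSMUSG00000020641), which encodes the antiviral enzyme viperin, lies on chromosome 12. Because these values chose the cells, they are given as a description. Pooled over members, *Rsad2* reached 1546 UMIs per 1000000 UMIs (CPM) against 12.3 CPM in the other eligible cells, and its rate in single members ran from 0 through a median of 10.4 to 88.9 per 10000. *Ifit2* reached 826 CPM against 5.10, *Ifit3* 767 against 7.23, and *Ifit1* 507 against 7.32. *Rsad2* supplied 42.4% of the members' UMIs of the 4 genes. Reads of *Ifit3* and *Ifit1* may be shared with the near-identical genes *Ifit3b* and *Ifit1bl1*, so the split between these copies is uncertain.

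The 4-gene rate of the members ran from 10.7 to 120 per 10000, with a median of 31.8, and rested on 9 to 198 UMIs per cell (median 45). Of the eligible cells, 2007 (82.1%) held no UMI of the 4 genes, 169 lay below 1 per 10000, 74 between 1 and 2, 59 between 2 and 5, 40 between 5 and 10, 25 between 10 and 20, 38 between 20 and 40, and 34 at 40 or more. Most eligible cells were thus at 0, and those with signal spread without an empty gap across the threshold. The 5 members just inside it held 10.7, 11.1, 11.1, 11.3, and 11.4 UMIs per 10000, and the 5 cells just outside held 9.79, 9.50, 9.31, 9.29, and 9.04. The threshold therefore falls within a continuous run of rates.

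**Figure D1:**
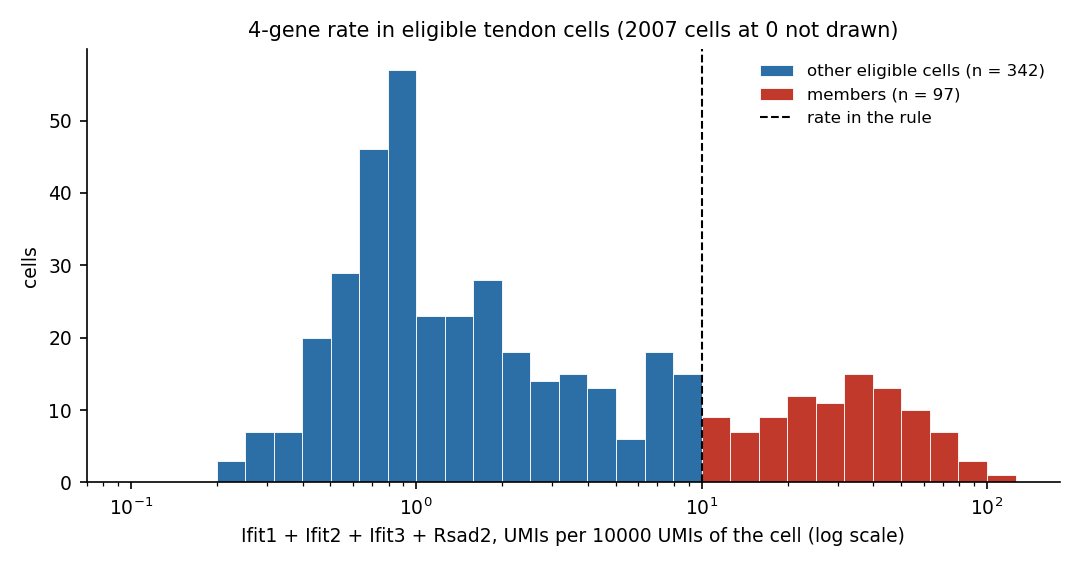
Number of eligible tendon cells by the summed rate of *Ifit1*, *Ifit2*, *Ifit3*, and *Rsad2* (UMIs per 10000 UMIs of the cell, log scale), for cells with at least 1 UMI of the 4 genes, with the 97 members in red, the other eligible cells in blue and the rate of the rule as a dashed line. Cells continue across the line, with 40 between 5 and 10 and 25 between 10 and 20, and the 2007 cells at 0 are not drawn.

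Interferon-induced genes that the rule did not use were also high in the members. Of 37 interferon-induced effectors with at least 20 UMIs over both groups, 34 were at least 2-fold higher in members and none was at least 2-fold lower, with a median log2 ratio of 3.13. Without *Ifit3b* and *Ifit1bl1*, the copies whose reads may come from genes of the rule, the count was 32 of 35 and the median 3.09. Among all 12310 genes measured at that depth, 838 (6.81%) were at least 2-fold higher and 1754 (14.2%) at least 2-fold lower, and their median log2 ratio was −0.20. With a minimum of 100 UMIs 499 genes were higher, with a minimum of 1 UMI 1578 were, and after thinning to 2000 UMIs per cell 1104 were lower. Since both groups were divided by genes of the same pathway, nothing is read from the distance between these shares. *Isg15*, shown for its sequence above and otherwise chosen after its values were seen, ran in single members from 1.14 through a median of 12.3 to 70.9 per 10000. In the other eligible cells it ran from 0 through a median of 0 to 50.01. Every member held an *Isg15* UMI, against 41.6% of the others and 21.1% of tendon cells with a *Pdgfra* UMI (median 35643 UMIs), and the ranges of the groups still overlapped. Pooled, it stood at 1522.5 CPM (95% Poisson interval 1462 to 1585) in members and 94.0 CPM in the others, a 16.2-fold difference.

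The effectors furthest above the other eligible cells, leaving aside the copies of rule genes, were *Ifi44* and *Cmpk2*. *Cmpk2*, a mitochondrial nucleotide kinase whose gene neighbours *Rsad2*, was present in 91 members, at 304 CPM against 3.18 (log2 ratio 6.58, interval 6.27 to 6.90). *Ifi44* counted 117 UMIs in 32 members and 3 UMIs in all 2349 other cells, a log2 ratio of 9.66 (8.08 to 11.96). *Ifit3b* and *Ifit1bl1* had log2 ratios of 6.76 and 6.87, which may partly restate the values that chose the cells. *Mx1*, which encodes a GTPase that blocks viral replication, stood at 238 CPM against 5.03, and *Oasl1*, of the oligoadenylate synthetase family, at 149 against 6.05, both chosen after their values were seen. At the low end of the list, *Ifitm3*, a membrane protein that restricts viral entry, was already at 1536 CPM in the other cells and 2036 in members (log2 ratio 0.41, 0.35 to 0.46), and within the C1q range at 1033 and 1863 (0.85, 0.79 to 0.91), with the others below that range at 2295. *Ly6e* and *Ifi27l2a* were likewise abundant in both groups, with log2 ratios of 0.80 and 0.61, and *Zc3hav1*, which binds viral RNA, was the lowest of those past 2-fold at 1.05. Levels in the other eligible cells thus covered a wide span, from *Ifi44* at 0.0927 CPM through *Isg15* at 94.0 to *Ifitm3* at 1536.

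Sensors of foreign nucleic acid were also high in members, with 10 of 13 at least 2-fold higher, none lower, and a median log2 ratio of 2.49. *Ddx58* and *Ifih1*, which encode the cytosolic RNA sensors RIG-I and MDA5, stood at 250 and 255 CPM in members against 22.02 and 25.8 in the others. *Tlr3*, an endosomal receptor for double-stranded RNA, was at 28.2 CPM against 3.00. *Ifi205*, of the PYHIN family of DNA-binding proteins, had the highest log2 ratio of the list at 4.19, although reads may be shared among the closely similar members of that family. The adaptors that pass the signal on differed little. *Mavs*, the adaptor of the RNA sensors, had a log2 ratio of 0.26 (−0.49 to 0.93), *Tmem173* (STING), that of the DNA sensor, one of 0.14 (−0.21 to 0.47), and *Mb21d1* (cGAS), the DNA sensor itself, one of 0.68. *Tlr9*, an endosomal DNA receptor, rested on 6 UMIs in members, with a log2 ratio of 1.08 whose interval reached from −0.43 to 2.28.

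Among signal transducers and transcription factors, 5 of 11 were at least 2-fold higher in members and none was lower (median log2 ratio 0.9999). *Irf7*, the factor that amplifies interferon gene transcription, was present in 96 members at 527 CPM against 37.9. *Stat2*, a factor of the response complex, stood at 126 CPM against 9.88, while *Irf9*, its DNA-binding partner and chosen after its values were seen, was at 64.1 against 32.0. *Irf8*, a myeloid lineage factor, had a log2 ratio of 1.75. *Irf3* and *Irf5*, which act at the sensing step, and the kinases *Jak1* and *Jak2* had log2 ratios from −0.03 to 0.36. The receptor genes did not reach 2-fold in either direction (0 of 5). *Ifnar1* was at 52.5 CPM in members and 76.9 in the others (log2 ratio −0.55, −0.89 to −0.23) and *Ifnar2* at 136 and 116 (0.23, 0.02 to 0.43). *Ifngr1* had a log2 ratio of −0.75 and *Ifngr2* one of −0.04, and *Il10rb*, a chain of the interferon lambda receptor, one of 0.11, while *Ifnlr1*, the other chain, had 0 UMIs in members and 1 in the other cells.

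Of the genes listed as regulators of the response, 4 of 6 were at least 2-fold higher in members and none was lower, with a median log2 ratio of 2.98. *Usp18*, which removes ISG15 from proteins and blocks *Ifnar2* signalling, stood at 161 CPM against 5.78 (log2 ratio 4.80). The other 3 were *Parp14* and *Parp9*, of the ADP-ribosyltransferase family, and *Dtx3l*, a ubiquitin ligase that pairs with PARP9 and with it is known to enhance rather than restrain interferon signalling. Their log2 ratios were 3.20, 2.78, and 3.19. The cytokine signalling inhibitors *Socs1* and *Socs3* had log2 ratios of 0.43 (−0.06 to 0.88) and 0.19.

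Genes classically linked to interferon gamma, which type I interferons also induce, were high in 13 of 14 cases, with a median log2 ratio of 3.98. *Iigp1*, a GTPase that attacks the vacuoles of intracellular parasites, stood at 162 CPM against 1.91, but 51 of the 97 members had none of it and 24.5% of its UMIs came from 1 cell. *Gbp5* had a log2 ratio of 5.32, and *Gbp4* and *Tgtp2*, which have close copies, had ratios of 5.83 and 6.13 on 22 and 27 UMIs in members. *Gbp2*, printed above, was at 254 CPM against 8.96. *Cd274*, the checkpoint ligand PD-L1, stood at 57.7 CPM against 12.4. *Nos2*, which makes nitric oxide, had a log2 ratio of 2.97, but 94.1% of its 17 UMIs in members were in 1 cell. *Ciita*, the master regulator of MHC class II genes, was at 3.20 CPM in members, from 5 UMIs, and 3.12 in the others, and the interval of its log2 ratio ran from −1.62 to 1.31.

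**Figure D2:**
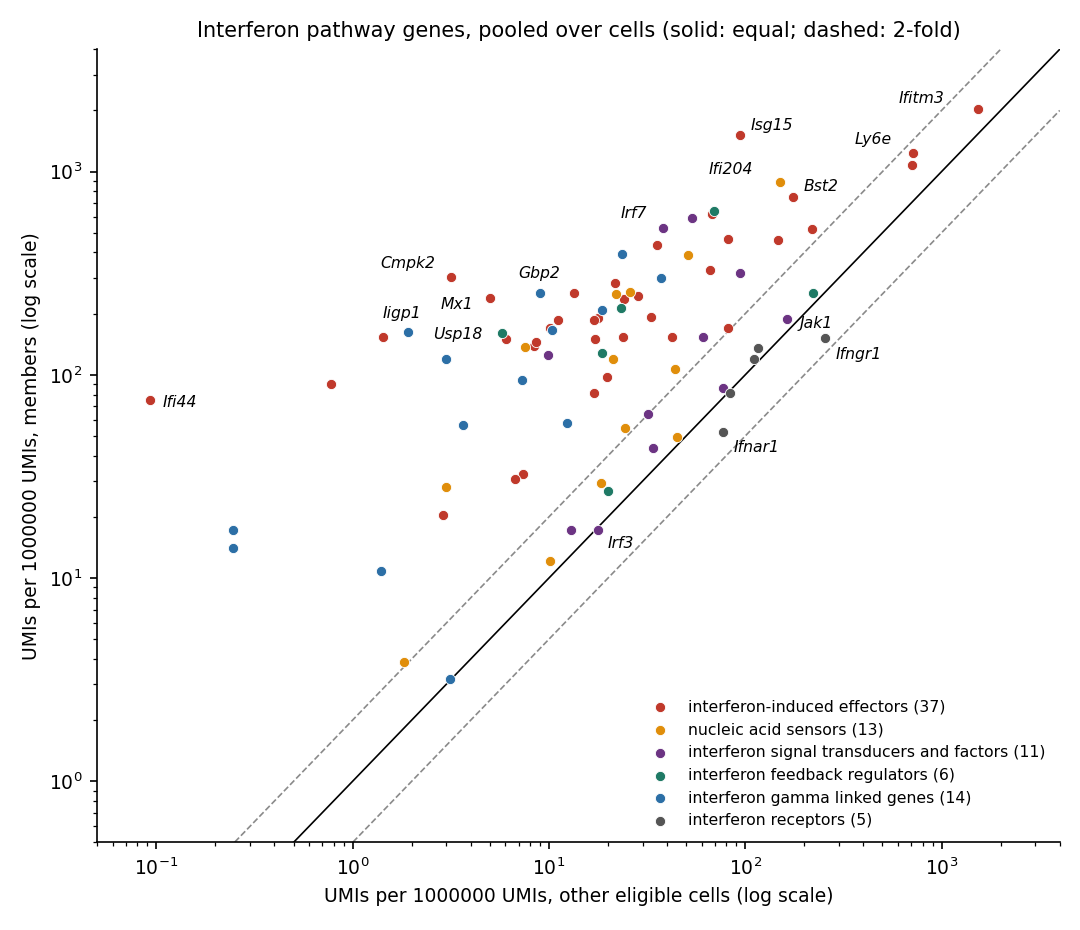
Pooled level of each interferon pathway gene with at least 20 UMIs in members (vertical) and in the other eligible cells (horizontal), in UMIs per 1000000 UMIs on log scales, colored by list, with the line of equal levels solid and the 2-fold lines dashed. Effectors, sensors and interferon gamma linked genes lie mostly above the upper dashed line, *Ifi44* furthest to the left, and the 5 receptor genes lie between the dashed lines.

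Interferon transcripts themselves were nearly absent from the series. Of 21 interferon genes in the files, 15 had no UMI in any library. *Ifnb1*, which encodes interferon beta, counted 8 UMIs in the whole series, in 2 cells, and both were members. One held 7 *Ifnb1* UMIs with 38 *Cxcl10* and 19 *Ccl5* UMIs. The other held 1 *Ifnb1* UMI and 88 *Cxcl10* UMIs, had no C1q transcript, and was the member with the highest 4-gene rate, 120 per 10000. *Ifng*, which encodes interferon gamma, counted 124 UMIs in 52 cells and none in an eligible tendon cell. In tendon, its 49 UMIs lay in 6 cells without *Csf1r*, *Pdgfra*, or *Cdh5*. The other interferon genes with UMIs were *Ifnz* (7), *Ifnk* (5), *Ifnab* (3), and *Ifne* (1), and none of these UMIs was in a member. With 97 members, a count of 0, taken at the floor of 3 counts, corresponds to 3.09% of such cells holding a UMI of a gene. The Clopper-Pearson upper limit for 0 of 97 is 3.73%, and both cover counting error only.

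Chemokines split in members. Of 16 genes, 6 were at least 2-fold higher and 5 at least 2-fold lower, and the median log2 ratio was 0.40. *Cxcl10* ran from 0 through a median of 4.42 to 66.4 per 10000 in members and from 0 through a median of 0 to 23.6 in the others. Of the members, 72 of 97 (74.2%, 64.3 to 82.6) held a *Cxcl10* UMI, against 15.03% of the others and 24.6% of the *Pdgfra* cells. After each cell was thinned to 2000 UMIs, which left out 28 of the other cells and no member, the shares were 50.5% and 5.04%. Pooled, *Cxcl10* stood at 917 CPM against 39.9 (log2 ratio 4.52), with the most abundant cell holding 6.15% of its UMIs. *Cxcl9*, another ligand of the T cell receptor CXCR3, had a ratio of 4.53, but it was present in only 5 members and 55.2% of its UMIs were in 1 of them. *Ccl5* and *Ccl4*, which attract T cells and monocytes, had log2 ratios of 3.74 and 2.30, and *Ccl12* and *Ccl3*, chosen after their values were seen, ratios of 2.09 and 1.67. The neutrophil attractants lay on the other side. *Cxcl1* was at 89.7 CPM in members against 377, and *Cxcl2* at 1730 against 4706 (log2 ratio −1.44, −1.50 to −1.39). *Cxcl3* had a ratio of −2.10 with 94.1% of its 34 UMIs in 1 member, and *Ccl6*, an attractant of monocytes and macrophages, was also lower, at −1.48.

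Inflammatory mediators divided in the same manner, with 5 of 17 at least 2-fold higher, 6 at least 2-fold lower, and a median log2 ratio of −0.05. The higher ones were led by *Tnfsf10*, the death ligand TRAIL, which was at 67.9 CPM in 53 members against 0.772 CPM in the other cells. *Il18bp*, a decoy that binds interleukin 18, and *Il15*, a growth factor of NK cells, had log2 ratios of 3.19 and 2.77, and *Il27*, a regulator of T cells, one of 3.59 on 11 UMIs. The lower ones included the classical injury cytokines. *Il1b* was at 182 CPM in members and 773 in the others (log2 ratio −2.09, −2.26 to −1.92), with 54 of 97 members at 0. Within the C1q range defined below, its log2 ratio was −0.91, short of 2-fold, and an *Il1b* UMI was found in 42.7% of members and 41.8% of the others (17.98% and 22.1% after thinning). *Il1a*, *Il6*, *Ptgs2* (the prostaglandin synthase COX-2), *Tnf*, and *Vegfa* had log2 ratios of −2.15, −1.83, −1.64, −1.29, and −1.21, *Il6* resting on 5 UMIs in members. *Irg1* (*Acod1*), the itaconate-producing enzyme central to the study, was detected in 5 members, with 66.7% of its 21 UMIs in 1 of them, at 13.5 CPM against 11.2 in the others (log2 ratio 0.27, −0.44 to 0.90).

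The members lay on the macrophage side of the eligible cells. Complement C1q, made by macrophages rather than fresh monocytes, was used to divide the cells, with at least 10 UMIs of *C1qa*, *C1qb*, and *C1qc* per 10000 called the C1q range. Of the members, 89 of 97 (91.8%, 84.4 to 96.4) were in this range, against 1328 of 2349 other eligible cells (56.5%, 54.5 to 58.6) and 2.87% of tendon cells with a *Pdgfra* UMI, which should lack C1q. Thinned to 2000 UMIs, the shares were 93.8% and 57.0%. The C1q range is a stretch of a continuous rate, and 2 members and 154 other cells lay within 5 per 10000 of its limit. Seen the other way, members were 6.28% (5.07 to 7.67) of the 1417 eligible cells in the range and 0.777% (0.336 to 1.53) of the 1029 below it. Within the range, cells with and without a UMI of the resident macrophage genes *Folr2* or *Cd163* held members at 6.45% and 5.91%, and these intervals overlapped.

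Macrophage markers followed, with 8 of 16 at least 2-fold higher in members, 1 lower, and a median log2 ratio of 1.003. *Apoe*, a lipid carrier, ran from 0 through a median of 217 to 871 per 10000 in members and from 0 through a median of 42.8 to 879 in the others, so the ranges coincided while the medians differed. *Gpnmb*, a lysosomal glycoprotein of lipid-loaded macrophages, was present in 59 members at 831 CPM against 99.0 (log2 ratio 3.07). A *Gpnmb* UMI was found in 60.8% of members, 21.1% of the others, and 21.4% of *Pdgfra* cells, and after thinning in 39.2% of members and 8.19% of the others. *Fcgr1*, a high-affinity antibody receptor that interferon also induces, stood at 712 CPM against 231 and had a UMI in every member and in 77.0% of the others, and *Mertk*, a receptor for dying cells, at 114 against 42.6. *Pf4*, *Mrc1*, *Cd68*, and *Spp1* had log2 ratios of −0.88, −0.46, 0.37, and 0.86. Monocyte markers had a median log2 ratio of −1.30, with 6 of 10 at least 2-fold lower and none higher. *Vcan*, a matrix proteoglycan made by monocytes, was at 26.3 CPM against 201, *Hp* (haptoglobin) at 17.9 against 190, and *Fn1* at 127 against 576. *Ccr2*, the receptor that brings monocytes out of the marrow, was at 175.5 CPM against 448. *Ly6c2* was at 39.1 CPM against 92.7, with 49.2% of the members' UMIs in 1 cell (*Ccr2* and *Ly6c2* were chosen after their values were seen), and *Chil3*, *Plac8*, and *F13a1* had log2 ratios from −0.88 to −0.36. Nonclassical monocyte markers had 0 of 8 higher and 3 lower, and resident macrophage markers 0 of 6 in either direction (median log2 ratio 0.43).

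Because the members were richer in C1q cells than the comparison group, the comparison was repeated with members and others of the C1q range only, a choice made after the data were seen. Of 11204 genes measured there, 663 (5.92%) were at least 2-fold higher and 1585 (14.1%) at least 2-fold lower. The effectors were little moved, with 34 of 37 again past 2-fold and a median log2 ratio of 3.11, and the interferon gamma linked genes had a median of 3.82. The macrophage markers, which include the C1q genes that define the range, had 3 of 16 at least 2-fold higher instead of 8, 2 lower instead of 1, and a median of 0.53. The monocyte markers had 4 of 10 lower instead of 6, 1 higher, and a median of −0.76. The sign of the median turned for the chemokines, at −0.15 with 6 higher and 6 lower, for the resident macrophage markers, at −0.11 with 2 of 5 lower (*Cd163* and *Lyve1*), for the dendritic cell markers, at 0.37 with 2 of 4 higher, for the endothelial markers, at −0.49 with 1 of 3 higher, and for the B cell markers, at −0.07. Nonclassical monocyte markers had 1 of 7 lower (median −0.08), fibroblast markers 2 of 7 (median −0.56), neutrophil markers 4 of 5 (median −1.23), and stress genes 1 of 12 higher (median 0.12). *Gpnmb* and *Apoe* kept log2 ratios of 2.56 and 1.47, and *Pf4* stood at −1.33. *Vcan* and *Fn1* remained at −2.83 and −2.41, whereas *Ly6c2* was at 0.47 and *Plac8* at 0.91, on the other side of 0 from the full comparison. The share of cells with a *Ly6c2* UMI after thinning was 3.37% in the 89 members and 4.49% in the others of the C1q range, so no direction is read for this gene. *Tnf* was at −1.45. *Cxcl10* and *Ccl12* had log2 ratios of 4.07 and 1.39. The interferon lists thus held their size among C1q cells, while part of the difference in monocyte genes and *Il1b* did not. Members of the range still held more C1q, with a median of 104 per 10000 against 64.8 in the others of the range. The groups were therefore not matched for C1q level.

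**Figure D3:**
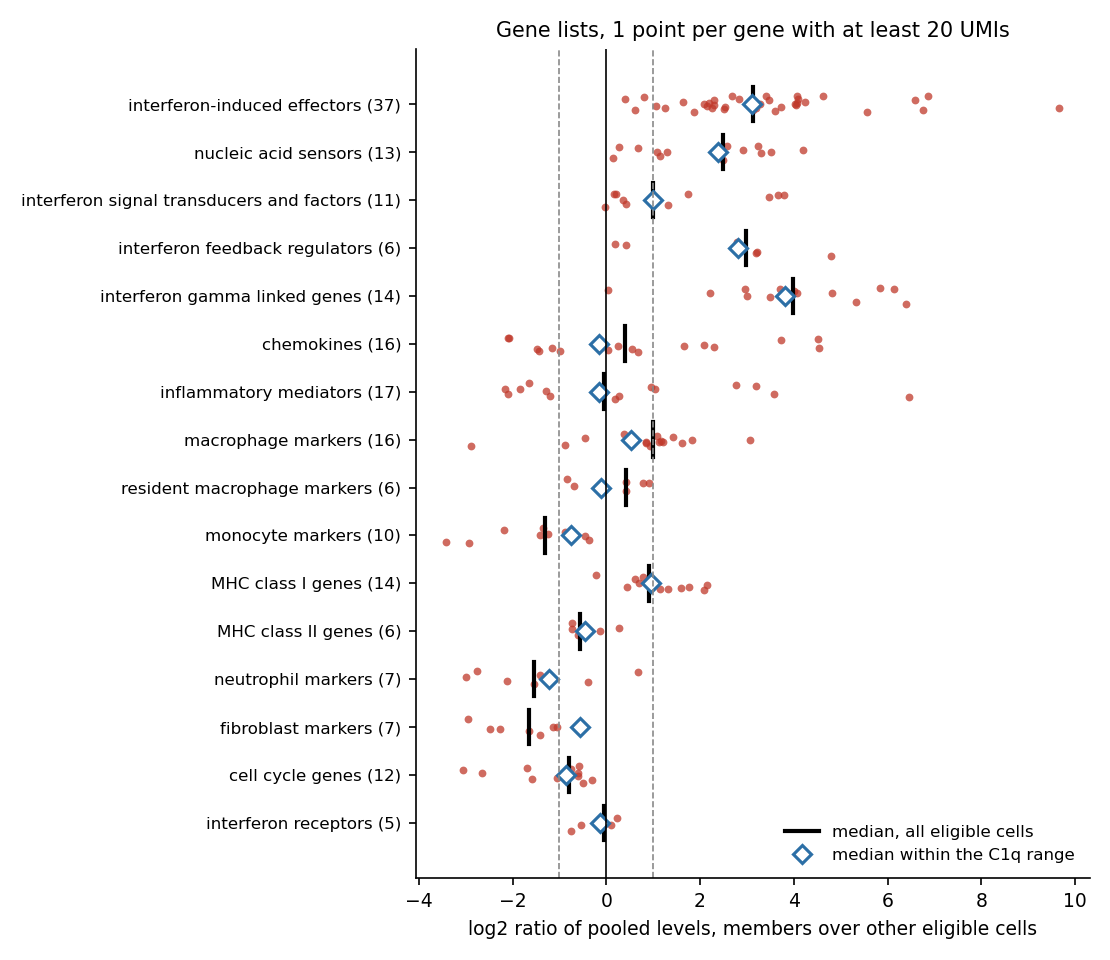
Log2 ratio of pooled levels, members over other eligible cells, for each gene with at least 20 UMIs in 16 lists (number of genes in brackets), with the median of each list as a black bar, the median within the C1q range as an open diamond, and dashed lines at 2-fold. The 5 upper lists sit to the right with bar and diamond close together, and the monocyte and macrophage medians lie nearer to 0 within the C1q range.

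Of the 8 members below the C1q range, 6 had no C1q UMI at all. The 4-gene rate of the 8 ran from 11.6 through a median of 43.3 to 120 per 10000, and their effector share from 0.998% through a median of 1.90% to 5.18% of UMIs. In these 8 cells *Isg15* was at 3013 CPM, *Cxcl10* at 2146, *Ccl4* at 1605, and *Ms4a4c*, an interferon-induced membrane gene of monocytes chosen after its values were seen, at 1707. *Hp* and *Vcan* were at 159 and 261 CPM, against 414 and 408 in the other eligible cells below the range, and *Iigp1* had no UMI. These levels rest on 8 cells, and those of *Hp* and *Vcan* on few UMIs. The cell at 120 per 10000 alone held 88 *Cxcl10* UMIs (6306 CPM within that cell), so the pooled *Cxcl10* level rests in part on it.

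Per cell, the effector list took 0.480% to 5.18% of the UMIs of a member, with a median of 1.24%, and 0% to 2.19% in the other eligible cells, with a median of 0.388%. The groups overlapped. No member was below the median of the others and 93 of 97 were above their upper quartile, but 935 of the others (39.8%) exceeded the lowest member and 52 (2.21%) exceeded the median member. Thinned to 2000 UMIs per cell, a member showed a median of 13 effector genes (range 4 to 24) and another eligible cell a median of 4 (0 to 19). Along the bins of the 4-gene rate, the pooled level of the effectors was 4015 CPM in cells at 0, 4567 below 1 per 10000, 8332 between 5 and 10, 10687 between 10 and 20, and 17112 at 40 or more. Cells just under the threshold therefore carried part of the response, with *Isg15* at 819 CPM and *Irf7* at 309 between 5 and 10 per 10000.

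Not all genes climbed with the rate inside the members. *Iigp1* was at 43.1 CPM between 10 and 20 per 10000, 80.0 between 20 and 40, and 332 at 40 or more, and *Cmpk2* at 122, 175, and 567. *Gpnmb* took the opposite order, at 1062, 925, and 570 CPM in the same bins. *Cxcl10* was at 823, 787, and 1119 CPM, which gives no steady order, and *Apoe* was highest in the middle bin at 28883. The bins hold 25, 38, and 34 cells, of which 96%, 94.7%, and 85.3% were in the C1q range. Whether the order of *Gpnmb* went with this share was not tested. *Iigp1* was at 0 in 51 of 97 members and at 23.6 per 10000 in its highest member, so single cells weigh on its levels.

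**Figure D4:**
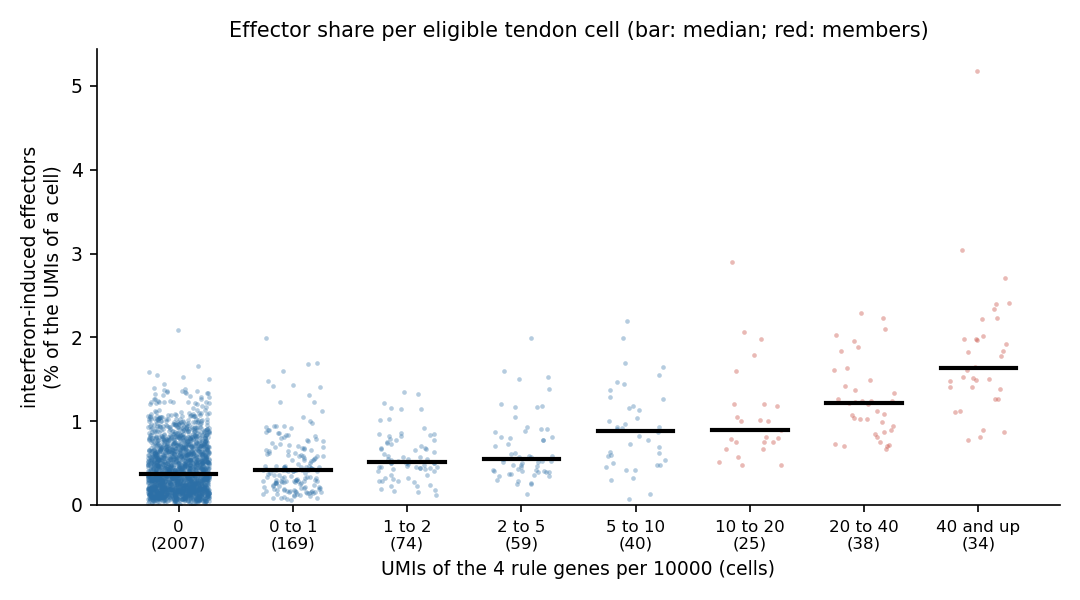
Share of each eligible tendon cell's UMIs that fell on the interferon-induced effectors (%), by bin of the 4-gene rate (UMIs per 10000; number of cells in brackets), with 1 point per cell, black bars for medians and members in red. The median goes from 0.364% in cells at 0 to 0.885% between 5 and 10 and 1.63% at 40 or more, and the points of neighbouring bins overlap.

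Antigen presentation genes differed by class. MHC class I genes and their peptide loading factors had 6 of 14 at least 2-fold higher, none lower, and a median log2 ratio of 0.92. *H2-T22*, *Tap1* (a peptide transporter), *H2-T23*, and *Psmb9* (an immunoproteasome subunit) had log2 ratios of 2.14, 2.09, 1.77, and 1.604, and the classical *H2-K1* and *H2-D1*, abundant in both groups, 0.45 and 0.62. MHC class II genes had none past 2-fold and a median of −0.56. *H2-Ab1* was at 430 CPM in members and 717 in the others, *Cd74*, the class II chaperone, at 1204 and 1830, and *H2-DMa* at 178 and 147. For *H2-Eb1*, 25.1% of the members' UMIs came from 1 cell.

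Markers of other cell types were low or at 0 in members. T and NK cell markers totalled 1 UMI in all 97 members (*Cd3d*). Of the B cell markers, *Cd79a* and *Ms4a1* were at 0 and *Cd79b* counted 15 UMIs in members, with the list at 9.61 CPM in both groups. The dendritic cell markers *Flt3*, *Ccr7*, *Xcr1*, and *Siglech* were at 0, with 2 of 8 genes of that list at least 2-fold higher on 20 UMIs or fewer (*Batf3* and *Zbtb46*) and 2 lower. Neutrophil markers beyond *S100a8* and *S100a9* were at least 2-fold lower in 5 of 7 cases and summed, without those 2 genes, to 75.6 CPM in members against 193. Fibroblast markers were at least 2-fold lower in 7 of 7 cases, at 58.3 CPM against 190, led by *Col3a1* with 36 UMIs, but in only 2 of 7 within the C1q range. Endothelial markers were at 16.0 against 16.6 CPM, with *Kdr* (7 UMIs) and *Emcn* (2 UMIs) the 2 of 4 past 2-fold, and erythroid globins were at 6.41 against 51.9 CPM, lower in 4 of 4. Of the tendon cells with a *Pdgfra* UMI, 17.8% also held a *Csf1r* UMI. Among the highest doublet scores of the library were 1 of 97 members (1.03%, 0.0261 to 5.61) and 84 of 2349 others (3.58%).

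Cell cycle genes had 5 of 12 at least 2-fold lower in members and none higher (median log2 ratio −0.80), beside 14.2% of all genes lower. Thinned to 2000 UMIs, 5.15% of members (1.69 to 11.6) and 7.88% of the others (6.82 to 9.06) held a *Mki67* or *Top2a* UMI. These intervals overlapped, so no direction is read for the share of cycling cells. *Rrm2*, *Tyms*, and *Mcm5*, needed for DNA synthesis, had log2 ratios of −3.05, −2.66, and −1.59, the first 2 of these on 3 and 4 UMIs. *Top2a* and *Stmn1* had ratios of −0.61 and −0.61, with 91.2% and 58.4% of the members' UMIs in 1 cell. Dissociation and stress genes had 2 of 12 at least 2-fold higher, none lower, and a median log2 ratio of 0.26, and whether dissociation had a part in this was not tested. *Atf3*, a stress-induced transcription factor, was at 747 CPM against 223, *Hspa1a*, a heat shock chaperone, at 95.4 against 46.9, and *Fos* and *Jun* had log2 ratios of 0.97 and 0.83. Heat shock gene *Hsp90aa1* lay lower at −0.86.

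Outside the lists and the rule, the 20 genes furthest above the other eligible cells were headed by *Pydc3*, at 66.6 CPM against 1.20. *Pydc4*, *Ifi203*, *Mndal*, *Pyhin1*, *Gm4955*, *BC094916*, *Gm5431*, and *Phf11a* were also among them, and the PYHIN genes in this group are so alike that reads may be shared. *Mndal* was at 703 CPM against 53.9, and *Ifi203* at 675 against 50.8. *Fam26f*, a channel-like protein of activated macrophages, was at 171 CPM against 11.3, *Znfx1*, an RNA helicase that senses double-stranded RNA, at 254 against 25.2, and *Ddx60*, a helicase of the RNA sensing path, at 154 against 15.4. *Trim30c*, *Trim34a*, *Rilpl1*, *Gm4070*, *Scimp*, *Aldh1b1*, and *A530032D15Rik* completed the group with *Fabp3*, a fatty acid carrier present in only 14 members at 24.3 CPM against 2.10.

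The 10 genes furthest below included *Krt14*, *Krt6a*, *Lgals7*, and *Sfn*, which keratinocytes of the epidermis express, and whether RNA of such cells had a part in the count of lower genes was not tested beyond the next values. *Krt14* was at 21.8 CPM in members and 624 in the others, and within the C1q range its log2 ratio was −2.41. The shares of cells with a *Krt14* UMI were close, at 29.9% of members and 32.2% of the others, and 6.19% and 6.98% after thinning, so the pooled gap lay in the UMIs per cell of some other cells. After cells with 0.1% or more keratinocyte UMIs were left out, a choice made after the data were seen, 838 genes were at least 2-fold higher and 1550 at least 2-fold lower. The other low genes were *Ltb4r1*, a receptor for leukotriene B4, *Mir155hg*, the host transcript of an inflammatory microRNA, *Siglece*, *Ppbp*, *Mcemp1*, and *Kcnq1ot1*. *Ltb4r1* was at 4.48 CPM against 72.4 and *Mir155hg* at 0.641 against 17.6, the latter from 1 UMI in members.

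The same rule was applied to the other libraries. In blood, 2 of 441 eligible cells (0.454%, 0.0550 to 1.63) reached the rate, and in bone marrow 3 of 352 (0.852%, 0.176 to 2.47), so both intervals lay below the tendon interval of 3.23 to 4.82. With cells thinned to 2000 UMIs, the shares were 86 of 1452 (5.92%, 4.76 to 7.26) in tendon, 3 of 224 (1.34%, 0.277 to 3.86) in blood, and 1 of 104 (0.962%, 0.0243 to 5.24) in bone marrow, and the bone marrow interval then overlapped that of tendon. At a rate of 5 per 10000 the blood share was 4 of 441 (0.907%). The 2 blood cells held 22.5 and 29.4 UMIs of the 4 genes per 10000, and the 3 bone marrow cells 10.4, 10.8, and 10.97, close to the limit. All 5 had no C1q UMI and held between 9 and 45 *Ly6c2* UMIs. The eligible cells of blood and marrow were deeper than those of tendon, with medians of 17548 and 26442 UMIs against 12456. As each tissue is 1 library prepared in its own way, tissue and library cannot be told apart.

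Cells at the same 4-gene rate were also found outside the eligible cells. In tendon they were 10 of 549 cells (1.82%) with 2% or more *S100a8* and *S100a9*, a range rich in neutrophils, 8 of 663 (1.21%) with *Pdgfra*, 20 of 377 (5.31%, 3.27 to 8.07) with the endothelial gene *Cdh5*, and 17 of 894 (1.90%) of the remaining cells. Of the 17 remaining cells at the rate, which held no *Csf1r* UMI, 11 were in the C1q range. So were 5 of the 20 *Cdh5* cells, 3 of the 8 *Pdgfra* cells, and 1 of the 10 with high *S100a8* and *S100a9*. Whether these were macrophages that the rule missed was not tested. The share among *Cdh5* cells overlapped that of the eligible cells. A *Csf1r* UMI was held by 74 of the 377 *Cdh5* cells and by 6 of the 20 at the rate, and without *Csf1r* the share was 14 of 303 (4.62%, 2.55 to 7.63). In blood, 24 of 420 cells (5.71%, 3.70 to 8.38) with high *S100a8* and *S100a9* reached the rate, at a median depth of 8959 UMIs, while the same range in bone marrow held 9 of 1259 (0.715%). Of those 24 blood cells, 8 held a *Csf1r* UMI. So did 181 of all 420 cells of that blood range (43.1%), against 11.5% of the same range in bone marrow, so the blood range may not hold neutrophils only. As 1 UMI defines the *Cdh5* cells, whether those at the rate were vascular cells was not tested. *Cxcl10* stood at 78.7 CPM over all *Cdh5* cells and 0.459 over all blood cells with high *S100a8* and *S100a9*. These are levels over whole ranges, not over cells chosen at the rate, and are not set against the 917 CPM of the members.

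**Figure D5:**
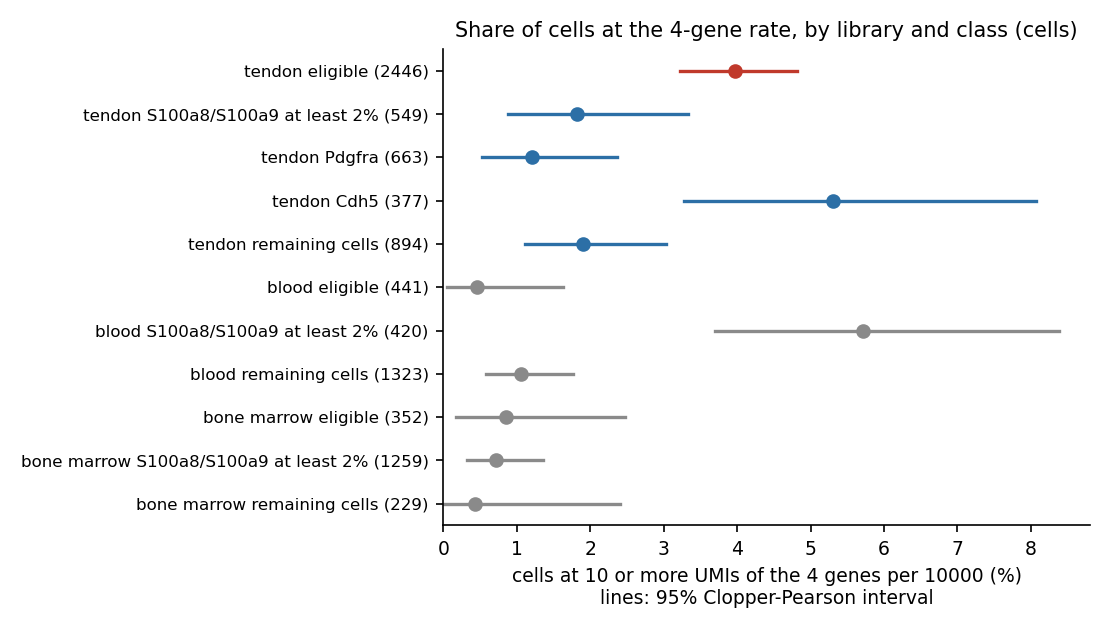
Share of cells (%) with at least 10 UMIs of *Ifit1*, *Ifit2*, *Ifit3*, and *Rsad2* per 10000, by library and class of cells (number of cells in brackets), with 95% Clopper-Pearson intervals as lines and the eligible tendon cells in red. Eligible tendon cells (3.97%), tendon *Cdh5* cells (5.31%) and blood cells with high *S100a8* and *S100a9* (5.71%) lie highest, and the eligible cells of blood and bone marrow stay below 1%.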

How the data were processed

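The authors deposited, for each library, unnormalized UMI counts per gene and cell barcode, which the file headers trace to Cell Ranger 5.0.1 and the submitters' processing notes to build mm10. Gene positions came from GENCODE M21 (GRCm38) by Ensembl identifier. Of 292 listed genes, 8 were not matched to a symbol and are not analysed here. Members were found by the rule given above, and members, gene lists and rule were chosen with earlier results of these data known. UMIs were summed over the cells of a group and scaled to CPM. Levels carry exact Poisson 95% intervals, shares Clopper-Pearson intervals, and log2 ratios intervals from the binomial split of the UMIs, all for counting error only, since cells are not replicates and each tissue is 1 library. Genes needed at least 20 UMIs over both groups, a count of 0 was set to a floor of 3 counts over the group, and a ratio whose floor crossed 1 was set to no difference. A ratio of 2 is a description and not a test.

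Named are up to 4 genes at each end of every list, every interferon ligand or receptor with UMIs, genes the paper names, and outside the lists the 20 highest and 10 lowest ratios of genes that counted 100 or more UMIs and were detected in 10% or more of the higher group's cells. Others are marked as chosen after their values were seen, and a few genes that the rule or lists hold are counted in the lists but not reported here by name. Doublets were scored with Scrublet (scanpy 1.11.5), marking 0.8% of cells per 1000 cells, and were kept. Cells with UMIs of both *Pdgfra* and *Cdh5* were left out of the classes. Simulated counts for members and others over 12323 genes were drawn as Poisson sums from the pooled eligible tendon profile, without variation between cells. Such counts follow the model behind the intervals, so they check the calculation and not the spread between cells. Intervals held the true ratio for 96.4% of unchanged genes. The share was 98.9% for 95 genes changed by a log2 size of 1 and 99.0% for 104 genes changed by 2. In the same order, the intervals lay off 0 for 4.21%, 66.3%, and 83.7% of these genes. Python 3.11.15, numpy 2.4.6, scipy 1.17.1, and pandas 2.3.3 were used. Alternatives covered the rate, filters, thinning, scaling, doublets, the comparison group and the UMI minimum.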

Additional observations from a re-analysis of the deposited data

How the results depend on the processing

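The results were recomputed under 16 other settings, 14 planned and 2 added after the data were seen, which gave 128 values. Of these, 111 stayed within the 95% counting interval of the reported value (for counts of genes, within 1.5 times) and 17 moved outside it. For a list median, the interval was that of its middle gene or genes. A change of direction was judged for the list medians only, and none occurred. Requiring at least 5 UMIs of the 4 genes could change nothing, since every member held at least 9. The tally is therefore a description and not a measure of robustness. With members taken at 5 or 20 per 10000, their share of eligible tendon cells was 5.60% or 2.94%, the macrophage median at 5 was 0.84, and at 20 the bone marrow share was 0%. After thinning to 2000 UMIs, the tendon share was 5.92%, the effector median 2.83, the macrophage median 0.86, and 1104 genes were at least 2-fold lower. Thinning moved the median log2 ratio of all genes from -0.20 to -0.08. Equal weights for cells gave a macrophage median of 1.07, and others without any UMI of the 4 genes gave an effector median of 3.55 and a macrophage median of 1.11. With others weighted to the members' C1q share, the monocyte median was -0.76 and the macrophage median 0.59, and within the C1q range only they were -0.76 and 0.53. Requiring at least 100 UMIs left 499 genes at least 2-fold higher, and requiring at least 1 gave 1578, which put the higher genes at 47.4% of those past 2-fold instead of 32.3%. The number of effectors past 2-fold ran from 29 to 35 over all settings.

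Each tissue was 1 library, so no setting tests repeatability between animals and there was no replicate to leave out. No paired analysis was possible because each tissue has a single library. Genes near 20 UMIs have intervals wider than most differences. The cells just under the rate of the rule carried raised effector levels, so the comparison group holds part of the signal, and both groups were divided by genes of the pathway that the effector list describes.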
